A study of Mus musculus with 9 samples.

Results

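The genes described are the mRNAs of the cytosolic ribosomal proteins, chosen by symbol alone: every row named Rpl or Rps with a number and an optional a, x, y or l suffix, together with Rplp0, Rplp1, Rplp2 and Rpsa. The rule took 84 of the 24060 genes in the table, 51 of the large and 33 of the small ribosomal subunit. Among the rows it left out were Fau and Rpl36al, which also encode ribosomal proteins, and all pseudogene rows. The 9 libraries came from CD8 T cells of 3 clones, named R7-I, R7-II and R7-III, with 3 labelled biological replicates of each. These are transnuclear mice on a Rag2-proficient BALB/c background, each cloned from the nucleus of 1 CD8 T cell specific for the ROP7 peptide of Toxoplasma gondii, so each line carries the T cell receptor (TCR) of a single founder cell. Measured with purified proteins, the affinity of the receptors for the peptide was ranked R7-I, R7-III, R7-II from high to low. Measured on cells, the paper found similar affinities for R7-I and R7-III and a lower one for R7-II. Receptor, affinity and mouse line cannot be told apart in this design. Splenocytes of all 3 lines were cultured overnight in medium that held IL-2 at 10 ng/ml and the ROP7 peptide at 10 µM. Cells gated as CD3+ CD8+ H-2Ld-Rop7+ were then collected by sorting, with a purity of between 90% and 95%.

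A ribosome holds 1 copy of nearly every ribosomal protein, so cells make these proteins in step, from mRNAs that are among the most abundant of a growing cell. Most of these mRNAs start with a C followed by a run of pyrimidines, the 5′ terminal oligopyrimidine (TOP) motif, through which the kinase mTORC1 and the RNA-binding protein Larp1 control their translation and stability. T cells that are activated through their receptor enlarge, turn on mTORC1 and Myc, and expand their ribosome content before they divide.

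Levels are in TPM, a length-corrected share of all transcripts that adds up to 1 fixed total per library. The paper gives a typical number of reads per sample, but the depth of each library is not known here and no counting error can be given. Changes were tested with limma on log2(TPM + 1) over the 11330 genes whose highest TPM exceeded 1, and called at a Benjamini-Hochberg adjusted p below 0.01. Of the 84 members, 82 passed this filter; Rpl10l was listed at 0 in all libraries and Rpl3l reached 0.09 TPM in 1 R7-I library and was listed at 0 in the others. Rps4l passed only through R7-II replicate 1. The CD8 T cell list was present in every library, with a summed level of 2855 to 2894 TPM in R7-I, 3974 to 4027 in R7-II and 3094 to 3149 in R7-III. Genes of other cells moved with R7-II. Over all genes tested, 40.6% were called higher and 15.5% lower in R7-II against R7-I. The 10 B cell genes summed to 8.69 to 16.1 TPM in R7-I, 35.7 to 74.7 in R7-II and 5.18 to 8.12 in R7-III, with 8 of 8 tested called higher against R7-I, and none of the 10 was at 0 throughout a clone. The 8 MHC class II genes, all called higher against R7-I, summed to 33.3 to 51.8, 116.2 to 189.6 and 24.97 to 29.5 TPM in the same order. The 11 myeloid genes, 7 of 10 tested called higher, summed to 1.55 to 2.31, 21.8 to 87.5 and 2.64 to 4.28 TPM, with Cd14 at 0 in R7-I. Fcer1g passed the filter only through R7-II, at 1.91 to 4.49 TPM there and at most 0.90 TPM in the other clones. For genes this low in R7-I and R7-III, a higher call is partly set by the filter and says little. The 8 erythroid genes, 1 of 6 tested called lower, went the other way in sum, with 45.2 to 131.3, 1.95 to 22.1 and 14.4 to 41.8 TPM and Hbb-bs at 0 in R7-I and R7-III. The 4 CD4 T cell genes summed to 3.36 to 4.11, 4.03 to 5.81 and 5.62 to 8.01 TPM. The part of such cells in the results below was not tested.

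Ribosomal protein mRNA took about the same share of every library. The 84 members summed to 24.85%, 24.81% and 24.49% of all TPM in the R7-I libraries, to 23.43%, 24.63% and 24.24% in R7-II, and to 24.45%, 24.35% and 23.38% in R7-III. The means were 24.7% ± 0.197 (SD, n = 3), 24.1% ± 0.612 and 24.1% ± 0.591. R7-II replicate 1 and R7-III replicate 3 were the lowest, R7-II overlapped both other clones, and R7-III lay just below R7-I in all 3 libraries. The difference of R7-II from R7-I was -0.62 percentage points that of R7-III from R7-I was -0.657 points, and that of R7-II from R7-III was 0.037 points. Without 1 library these ranged from -0.887 to -0.282, from -0.853 to -0.318 and from -0.302 to 0.375 points. The large subunit accounted for 13.9% ± 0.117 in R7-I, 13.4% ± 0.304 in R7-II and 13.5% ± 0.334 in R7-III, and its R7-I libraries, 13.77% or more, lay above all 6 others, which reached 13.71%. The small subunit accounted for 10.8% ± 0.0839, 10.7% ± 0.309 and 10.6% ± 0.252, with overlapping libraries. Among the 100 most abundant genes 67 were members, and 71 of the 84 stayed above 1000 TPM in every library. In bulk RNA, fewer cells of a type and less RNA per cell cannot be told apart, and a share says nothing of the amount of ribosomal protein mRNA in a cell.

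**Figure D1:**
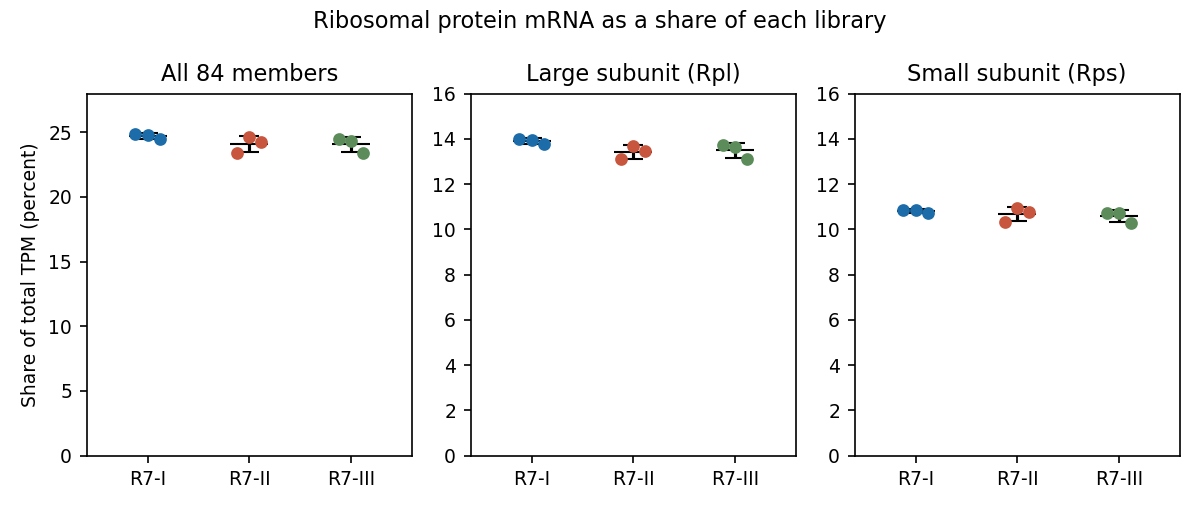
Share of total TPM, in percent, taken by all 84 members, by the large subunit and by the small subunit. Points are libraries and bars the mean and SD of 3 libraries; all 9 libraries lie between 23.38% and 24.85% for the full set.

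Between R7-II and R7-I, 5 of the 82 members tested were called higher and 17 lower. Over all genes tested, 40.6% were called higher and 15.5% lower, so the members were called lower at 20.7% and higher at 6.10%. The median member log2 fold change was -0.048, beside 0.17 over all genes tested, and 80 of the 82 members lay below the all-gene median. Members also moved little: 74 of 82 had a log2 fold change within 0.2 of zero, against 37.5% of all genes, and the median absolute change was 0.071 against 0.28. The calls were split by subunit, with 1 higher and 15 lower among the 49 members of the large subunit and 4 higher and 2 lower among the 33 of the small subunit. The 4 include Rps4l, which was near 0 and passed the filter only through R7-II replicate 1. The 15 include Rpl26, Rpl30 and Rpl34, whose rows held a small part of the sum with near-identical copy rows, described below. With copy rows added, 6 members were called higher and 16 lower, beside 4606 and 1752 of 11316 genes. Rpl30 was then not called and Rps27 was called higher. The set as a whole read differently with other scalings. The TPM of the typical gene was higher in R7-II, and with median-of-ratios scaling, which brings the typical gene to the same level in all libraries, 67 members were called lower and 1 higher (29.4% and 25.2% of all genes), with a median of -0.24. After quantile normalization the counts were 9 lower and 10 higher (26.6% and 22.6% of all genes), with a median of 0.016.

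**Figure D2:**
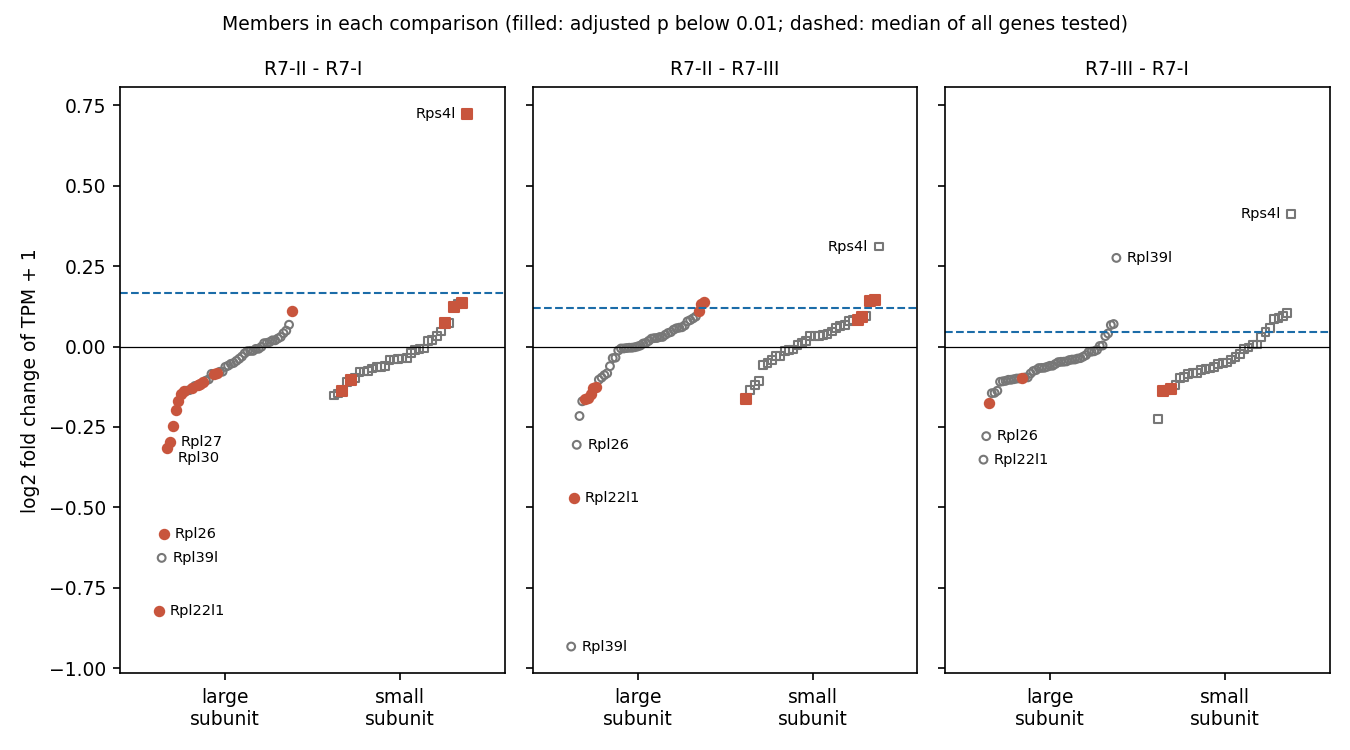
Difference in log2(TPM + 1) of each tested member in the 3 comparisons, circles for the large and squares for the small subunit, sorted within each; filled points have an adjusted p below 0.01 and the dashed line is the median of all genes tested. Rps27, whose value reaches 2.05, is left out; Rpl22l1 is the lowest filled point of both R7-II comparisons, at -0.82 and -0.47.

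Rpl22l1 had the largest called change in both comparisons of R7-II. It encodes a paralog of the RNA-binding large subunit protein Rpl22 that can take the place of Rpl22 in the ribosome, and both proteins are known for roles in the development of T cells. The level of Rpl22l1 was 495, 454 and 415 TPM in R7-I. It was 366, 368 and 332 TPM in R7-III and 248, 231 and 291 TPM in the R7-II libraries. The 3 clones did not overlap, with R7-I highest and R7-II lowest. The log2 fold change was -0.82 ± 0.084 (SE) between R7-II and R7-I (adjusted p = 1.06e-05, limma) and -0.47 ± 0.084 between R7-II and R7-III (adjusted p = 0.000566), and both calls held in all 24 settings tried, over which they ranged from -1.01 to -0.75 and from -0.61 to -0.40. The step from R7-I to R7-III, -0.35 ± 0.084, missed the threshold (adjusted p = 0.0159) but passed it when R7-II replicate 3 was left out (adjusted p = 0.00476) and when only these clones were fitted (adjusted p = 0.00902).

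Rpl22 itself changed less than Rpl22l1. It measured 397, 390 and 377 TPM in R7-I, 342, 366 and 357 in R7-II and 364, 379 and 368 TPM in R7-III. R7-II lay below R7-I in all libraries, with a log2 fold change of -0.13 ± 0.033 (adjusted p = 0.00518), a call that was lost in 4 of the 9 fits without 1 library (R7-I replicate 1 or 2, R7-II replicate 1 or 3; adjusted p up to 0.0253). It overlapped between R7-II and R7-III (-0.061, adjusted p = 0.12). The 2 paralogs were therefore present in different proportion. TPM of Rpl22l1 over that of Rpl22 was 1.25, 1.16 and 1.10 in the R7-I libraries, 1.01, 0.972 and 0.902 in R7-III, and 0.726, 0.633 and 0.815 in R7-II. This ratio does not depend on how libraries are scaled, and the clones did not overlap in it. Of the 100-base windows of Rpl22l1 transcripts, 42.9% also occur in another annotated gene, 34.3% in the pseudogene Gm15421, whose row held less than 1% of the sum of both, while no window of Rpl22 is shared.

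**Figure D3:**
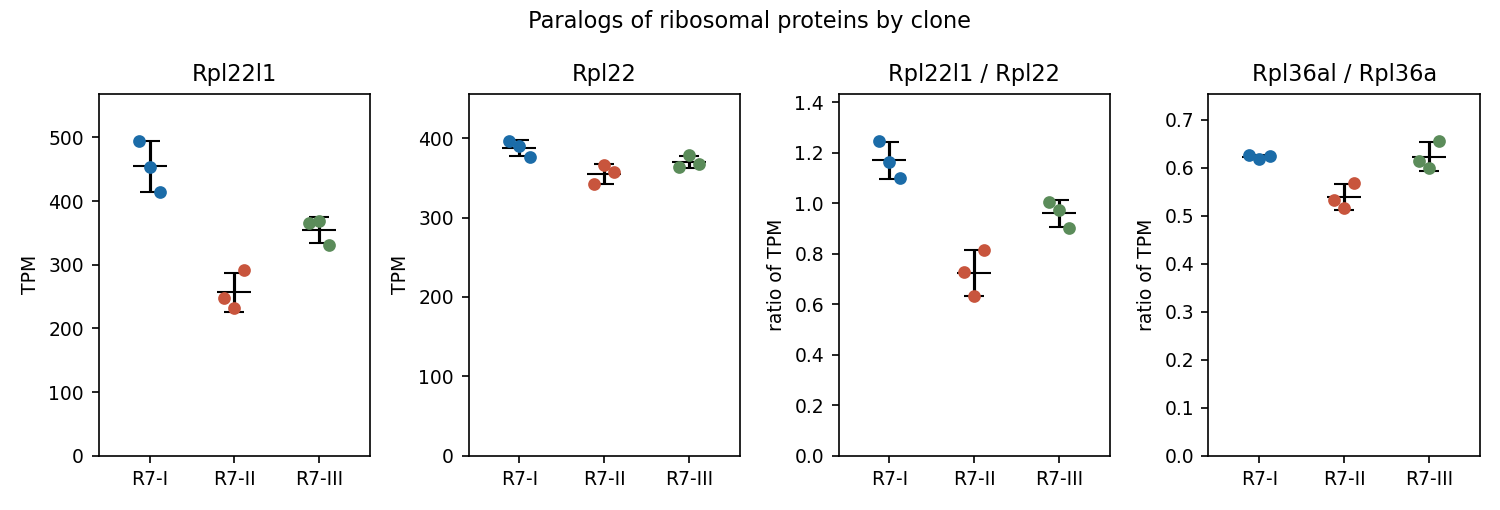
TPM of Rpl22l1 and Rpl22, the ratio of the 2, and the ratio of Rpl36al to Rpl36a, by clone. Points are libraries and bars the mean and SD of 3; the Rpl22l1 to Rpl22 ratio averages 1.17 in R7-I, 0.960 in R7-III and 0.724 in R7-II.

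The annotated starts of these and of other members that moved show the pyrimidine run of TOP mRNAs to different degrees. The stretches below hold 15 bases before and 15 after a RefSeq start on GRCm38.p6, and capitals mark the longest run of C or T that reaches within 5 bases of the start. They are Rpl22l1 (chr3:28805493-28805522, plus strand), Rpl22 (chr4:152324421-152324450, plus), Rpl35 (chr2:39005117-39005146, minus), Rpl7a (chr2:26910792-26910821, plus), Rpl14 (chr9:120571502-120571531, plus), Rps6 (chr4:86857353-86857382, minus), Rps9 (chr7:3704026-3704055, plus) and Rps4x (chrX:102189377-102189406, minus).
Rpl22l1: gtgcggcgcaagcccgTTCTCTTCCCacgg
Rpl22: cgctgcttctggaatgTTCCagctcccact
Rpl35: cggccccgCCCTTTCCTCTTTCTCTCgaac
Rpl7a: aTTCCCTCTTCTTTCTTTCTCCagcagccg
Rpl14: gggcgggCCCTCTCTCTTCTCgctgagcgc
Rps6: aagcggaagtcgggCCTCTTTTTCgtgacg
Rps9: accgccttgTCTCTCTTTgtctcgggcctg
Rps4x: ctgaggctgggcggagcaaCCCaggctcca

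The run measured 10 bases in Rpl22l1 and 4 at the Rpl22 start shown, 1 of 2 in the table. Among the members called lower between R7-II and R7-I it ranged from 1 base in Rpl7l1 to 21 in Rpl7a. Lower members not shown above had long runs, such as 20 bases in Rpl27a and 17 in Rpl15, or short ones. The short runs were 5 bases in Rpl27, 3 in Rpl26 and 2 in Rps3 and Rpl24, among others. Of the members called higher it was 9 bases in Rps9, 4 in Rplp0 and Rps28 and 3 in Rps4x. RefSeq windows from 250 bases before to 50 after the start were at hand for 63 of the 84 members, with 75 starts. A C followed by at least 4 letters that are each C or T, beginning within 10 bases of the start, was found at 41 of these 75 starts (54.7%), against 30.7% of all 32851 starts in the table and 32.2% of those of the genes tested. A run of 8 or more bases over the start was found at 32.0% of member starts, at 9.38% of all and at 9.59% of those of the genes tested. The letters CCGGAAG, read on either strand, were in 36.0% of member windows, 8.86% of all and 18.9% of those of the genes tested, and AAGATGGC in 10.7%, 2.75% and 4.73%. Such matches describe the annotated sequence and not the start sites used in these cells.

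Of the other members that fell in R7-II against R7-I, most belonged to the large subunit. Rpl27, a large subunit protein, measured 1891, 1879 and 1853 TPM in R7-I, 1461, 1599 and 1519 in R7-II and 1770, 1754 and 1593 TPM in R7-III. All R7-II libraries were below all R7-I libraries, and the log2 fold change was -0.30 ± 0.043 (adjusted p = 0.000119). Rpl35, which lies at the exit of the peptide tunnel, measured 4074, 3918 and 3904 in R7-I and 3361, 3505 and 3518 TPM in R7-II, a change of -0.20 ± 0.029 (adjusted p = 0.000166). Rpl35 shares 52.3% of its 100-base windows with the neighbouring gene Wdr38, and the library kit does not mark strand, so the reads of the overlap cannot be assigned to either. Rpl7a, a large subunit protein, measured 4105, 4194 and 4132 in R7-I and 3601, 3790 and 3673 TPM in R7-II, a change of -0.17 ± 0.024 (adjusted p = 0.000107). The calls of Rpl27, Rpl35 and Rpl7a held in all 24 settings tried. Rps2, which sits at the mRNA entry and is one of the 5 most abundant members, had 7361, 7300 and 7369 in R7-I and 6846, 6881 and 6793 TPM in R7-II, a change of -0.10 ± 0.019 (adjusted p = 0.000605) that was not called after quantile normalization (-0.021, adjusted p = 0.598). R7-III lay between the other clones for Rpl35, Rpl7a and Rps2 in every library. The rest of the lower calls, Rpl14, Rps3, Rpl15, Rpl18, Rpl27a, Rpl24, Rpl6 and Rpl7l1, had log2 fold changes between -0.15 and -0.083.

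Rpl26, Rpl30 and Rpl34 were called lower in this comparison as well, but their rows hold only a small part of the RNA that could come from them. Each has a near-identical copy that is a separate row of the table, and the same is true of Rps27. Over the longest open reading frame of the GENCODE transcripts (release M21, GRCm38), Rpl26 (chr11:68901566-68904534) and Gm15772 (chr5:3236390-3236928) agreed at 99.5% of bases, Rpl30 (chr15:34440505-34443276) and Gm12191 (chr11:49678620-49679143) at 99.7%, Rpl34 (chr3:130726827-130730398) and Rpl34-ps1 (chr6:71124589-71125001) at 99.4%, and Rps27 (chr3:90212667-90213648) and Rps27rt (chr9:114982366-114982739) at 100%. Each pair of 60 bases below shows how little separates a member from its copy; capitals mark the base that differs, and the Rps27 stretch, the start of its coding sequence, is identical in both.
Rpl26: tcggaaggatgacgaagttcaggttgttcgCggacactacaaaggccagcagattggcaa
Gm15772: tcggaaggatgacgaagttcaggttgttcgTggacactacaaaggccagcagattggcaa
Rpl30: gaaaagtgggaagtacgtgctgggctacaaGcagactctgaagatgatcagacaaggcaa
Gm12191: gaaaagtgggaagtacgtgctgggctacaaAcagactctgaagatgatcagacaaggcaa
Rpl34: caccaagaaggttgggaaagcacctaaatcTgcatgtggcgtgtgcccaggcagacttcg
Rpl34-ps1: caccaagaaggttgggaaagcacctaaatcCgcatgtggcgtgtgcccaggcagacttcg
Rps27: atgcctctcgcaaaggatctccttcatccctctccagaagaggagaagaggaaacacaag

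The copy rows carried most of the TPM. Mean levels over all libraries were 267 TPM for Rpl26 and 3410 for Gm15772, 127 for Rpl30 and 2750 for Gm12191, 445 for Rpl34 and 2920 for Rpl34-ps1, and 209 for Rps27 and 3400 for Rps27rt. The fold changes of these members differed between the row alone and its sum with the copy. Rpl26, a protein of the tunnel exit, measured 305, 356 and 303 in R7-I and 182, 203 and 263 TPM in R7-II (log2 fold change -0.58 ± 0.12, adjusted p = 0.00124). Added to its copy it was 3890, 3852 and 3886 in R7-I and 3398, 3680 and 3572 TPM in R7-II, a change of -0.13 ± 0.030 (adjusted p = 0.00327). Rpl30 fell by 0.32 on its own row (adjusted p = 0.00231), but the sum with its copy, 2946 ± 50.9 in R7-I and 2949 ± 91.6 TPM in R7-II (SD, n = 3), differed by 0.00081 (adjusted p = 0.983). Rpl34 changed by -0.25 alone, a call lost without R7-I replicate 1 or 2 or R7-II replicate 2 (adjusted p up to 0.0149), and by -0.24 ± 0.034 summed (adjusted p = 0.000108). Rps27, a small subunit protein with a zinc finger, was the most scattered member: its row gave 399, 93.5 and 204 TPM in R7-I, 372, 192 and 336 in R7-II and 85.0, 181 and 21.0 TPM in R7-III, and the sum with Rps27rt gave 3404, 3303 and 3298, 3843, 4080 and 4184, and 3519, 3495 and 3350 TPM. In every library of R7-II the sum exceeded that of all other libraries, by 0.27 ± 0.033 against R7-I (adjusted p = 3.42e-05) and 0.22 ± 0.033 against R7-III (adjusted p = 0.000155), where the row alone was not called (adjusted p = 0.494 and 0.0225). These sums were chosen after the values had been seen. They were not fitted with median-of-ratios scaling, which moved the median member between R7-II and R7-I from -0.048 to -0.24. More widely, 75 of the 83 members with transcripts in the annotation share at least 1 window of 100 bases with another annotated gene, and 20 share over 50% of their windows. Many of those genes have no TPM row. Counted over genes that have a row, the highest share was 52.3%, of Rpl35. In all, 14 members have copy rows in the table, and in the other 10 the member row held at least 70.8% of the sum.

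**Figure D4:**
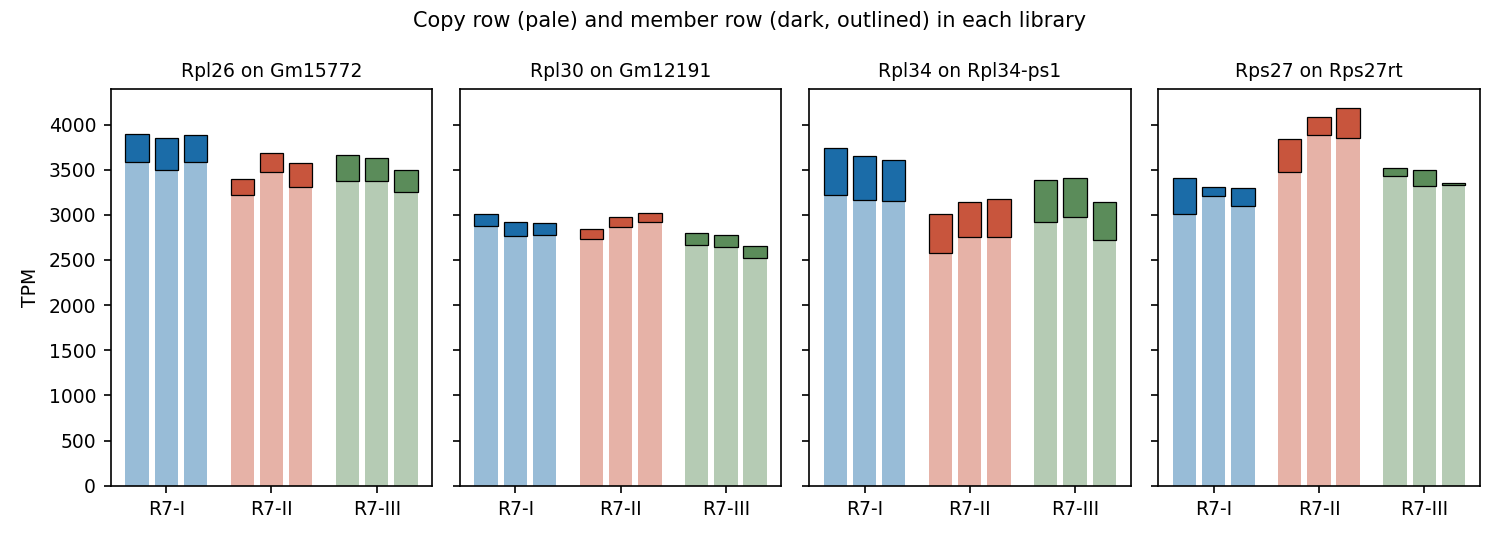
TPM of 4 members (dark, outlined) stacked on the TPM of their near-identical copy rows (pale) in each of the 9 libraries, coloured by clone. The copy row holds most of each bar, and the split of Rps27 varies from 0.626% to 11.7% of the sum while the sum itself is even within a clone.

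The 5 members called higher between R7-II and R7-I were Rplp0, Rps9, Rps28, Rps4x and Rps4l, and after median-of-ratios scaling the first 4 had negative values, from -0.11 to -0.052, and were not called. Rplp0, the base of the ribosomal stalk that recruits elongation factors, measured 5078, 5217 and 5266 in R7-I and 5536, 5767 and 5515 TPM in R7-II (0.11 ± 0.024, adjusted p = 0.00179). Rps9, a core protein of the small subunit, measured 4440, 4568 and 4510 in R7-I and 4763, 5068 and 4889 TPM in R7-II (0.12 ± 0.028, adjusted p = 0.00267), a call lost without R7-I replicate 1 (adjusted p = 0.013). The libraries of both genes were apart between these clones. Rps28 (0.14, adjusted p = 0.00866) and Rps4x (0.073, adjusted p = 0.00665) rose by similar steps but lost the call in 6 and 7 of the 9 fits without 1 library (R7-I replicates 1 and 3, R7-II replicates 2 and 3 and R7-III replicates 1 and 2 for both, and R7-I replicate 2 for Rps4x; adjusted p up to 0.0357 and 0.0253). Rps4l, a copy of the X-linked Rps4x, was near 0 in all libraries, with 0.19, 0.20 and 0.12 TPM in R7-I, 1.49, 0.66 and 0.74 in R7-II and 0.56, 0.49 and 0.62 TPM in R7-III, and because it entered the test only through an R7-II library its call says little.

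Between R7-II and R7-III, 7 members were called higher and 7 lower, where 35.6% of all genes were called higher and 18% lower. The median member log2 fold change was 0.011, beside 0.12 over all genes tested, and ranged from -0.013 to 0.034 without 1 library. In all, 76 of 82 members lay within 0.2 of zero against 39.8% of all genes. After median-of-ratios scaling no member was called higher with limma (1 at an unadjusted p below 0.05) and 24 lower, with a median of -0.12; all genes were then called higher at 25% and lower at 28.2%. The higher calls were Rps4x, Rps6, Rpl5, Rpl17, Rpl32, Rps7 and Rps3a1. Rps6, the small subunit protein that S6 kinases phosphorylate downstream of mTORC1, measured 3003, 3082 and 3062 in R7-II and 2760, 2796 and 2722 TPM in R7-III (0.14 ± 0.022, adjusted p = 0.0002). Rpl5, which joins the 5S RNA with Rpl11 and can restrain Mdm2, measured 1665, 1692 and 1674 TPM in R7-II, 1652, 1616 and 1620 in R7-I and 1519, 1537 and 1513 TPM in R7-III (0.14 ± 0.020, adjusted p = 0.000149). Rps4x measured 5270, 5379 and 5362 in R7-II and 4862, 4875 and 4778 TPM in R7-III (0.14 ± 0.020, adjusted p = 9.82e-05). The libraries of the 3 genes were apart and their calls held without any 1 library, but median-of-ratios scaling brought their values to 0.010, 0.0046 and 0.0074. Of the windows of Rpl5, 82.7% occur in another annotated gene, 39.9% in the overlapping Fam69a. For Rps6 and Rpl7a the first share was 83.6% and 73.5%, but only 0% and 0.491% of their windows occur in another gene that has a TPM row. Under that scaling Rpl17, Rpl32 and Rps7 changed sign, to -0.0032, -0.025 and -0.043, and were not called. On the TPM scale their calls were lost in 5, 4 and 8 of the 9 fits without 1 library (R7-II replicate 2 or 3 and R7-III replicate 2 or 3 for all, R7-I replicate 2 also for Rpl17 and Rps7, and R7-I replicate 1 or 3 and R7-III replicate 1 also for Rps7; adjusted p up to 0.0303).

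The members called lower in R7-II than in R7-III were Rpl22l1, Rps12, Rpl41, Rpl27, Rplp1, Rpl7a and Rpl7l1. Rpl7a had 4045, 4068 and 3976 TPM in R7-III, above all R7-II libraries (-0.13 ± 0.024, adjusted p = 0.000747). Rpl7l1, a paralog of Rpl7 with a role in ribosome assembly, had 239, 238 and 240 in R7-III and 225, 217 and 215 TPM in R7-II (-0.12 ± 0.030, adjusted p = 0.00409); its call was lost in 5 of the 9 fits without 1 library (R7-II replicate 2 or 3, or any R7-III replicate; adjusted p up to 0.0177). Rpl41, a very short peptide at the interface of the subunits, had 7155, 7102 and 6641 in R7-III and 5945, 6628 and 6096 TPM in R7-II (-0.16 ± 0.043, adjusted p = 0.00631). Rplp1, a stalk protein, had 7636, 7506 and 6967 TPM and 6499, 6961 and 6485 TPM (-0.15 ± 0.038, adjusted p = 0.00551), and Rps12, of the beak of the small subunit, 6791, 6713 and 6268 TPM and 5495, 6332 and 5838 TPM (-0.16 ± 0.047, adjusted p = 0.00979). For Rpl41 and Rplp1 the gap between the clones was narrow and for Rps12 the libraries overlapped. The calls of Rpl41, Rplp1, Rps12 and Rpl27 were lost in 5, 4, 7 and 7 of the 9 fits without 1 library. Leaving out R7-II replicate 1 or 3 or R7-III replicate 1 or 2 ended all 4 of these calls; so did leaving out R7-I replicate 1 for Rpl41, Rps12 and Rpl27, and R7-I replicate 2 or 3 for Rps12 and Rpl27 (adjusted p up to 0.0406). After quantile normalization none of the 4 was called, at -0.038, -0.021, -0.030 and -0.034 (adjusted p = 0.153, 0.468, 0.448 and 0.424). Without R7-III replicate 3, the library with the lowest share of members, 11 members were called lower and 3 higher, beside 1785 and 3639 of 11305 genes.

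Between R7-III and R7-I, 4 members were called lower, Rpl17, Rps18, Rps7 and Rpl5, where 1.45% of all genes were. No member was called higher with limma (4 at an unadjusted p below 0.05), where 6.96% of all genes were. The median member changed by -0.057 beside 0.045 over all genes tested, and 76 of 82 members stayed within 0.2 of zero against 75.8% of all genes. Rps18, a protein of the head of the small subunit, measured 5139, 5199 and 5035 TPM in R7-I, 4739, 4915 and 4895 in R7-II and 4700, 4739 and 4537 TPM in R7-III (-0.14 ± 0.025, adjusted p = 0.00411). Rpl17, of the tunnel exit, measured 2669, 2647 and 2563 TPM in R7-I, 2435, 2590 and 2617 in R7-II and 2396, 2346 and 2236 TPM in R7-III (-0.18 ± 0.034, adjusted p = 0.00617). Rps7 (-0.13, adjusted p = 0.00525) and Rpl5 (-0.097, adjusted p = 0.0085) fell by less. None of the 4 calls held without each library in turn (adjusted p up to 0.0439), and with R7-I replicate 1, R7-I replicate 2 or any R7-III replicate left out, 0 members were called lower. Over all genes, 73 to 102 were called lower in these fits, against 164 with all libraries. After median-of-ratios scaling no member was called in either direction, with 1 higher and 49 lower at an unadjusted p below 0.05; 4.86% of all genes were called higher and 3.72% lower.

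To set the members against each other rather than against the whole library, each library was divided by the geometric mean of the 80 members at 1 TPM or more in every library, so that a change is one relative to the other ribosomal proteins. Between R7-II and R7-I, 10 members were then called higher and 6 lower, where all genes were called higher at 41.7% and lower at 10.4%. All 6 lower members belonged to the large subunit, while 7 of the 10 higher ones belonged to the small subunit. The 7 include Rps4l, which was near 0 and entered the test only through an R7-II library. The 6 include Rpl26 and Rpl30, whose rows held a small part of the sum with their copies. Rpl22l1 (-0.77 ± 0.073, adjusted p = 1.25e-06), Rpl27 (-0.24 ± 0.032, adjusted p = 2.4e-05) and Rpl35 (-0.14 ± 0.025, adjusted p = 0.00035) were among the lower, and Rps9 (0.18 ± 0.028, adjusted p = 8.54e-05) and Rplp0 (0.17 ± 0.034, adjusted p = 0.000715) among the higher. Between R7-II and R7-III, 5 were called higher and 12 lower (29.2% and 16.3% of all genes), and between R7-III and R7-I, 5 higher and 0 lower (9.65% and 0.609% of all genes), Rps9 among the higher (0.16 ± 0.028, adjusted p = 0.00136). The unsteady Rps27 row is part of that mean.

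Counted by libraries that do not overlap, 9 members were higher and 33 lower in R7-II against R7-I, where 50.6% and 20.6% of all genes tested were. Against R7-III the counts were 21 and 12, with 46.4% and 24.3% of all genes. Between R7-III and R7-I they were 5 and 47, with 29.5% and 12.4%. Other rules moved the shares of all genes called as well. Quantile normalization called 24.4% of all genes higher and 25.1% lower between R7-II and R7-III, where 15 and 5 members were called, and 3.77% and 2.25% between R7-III and R7-I, where 1 and 2 members were. With no trend in the variance, 39.3% and 14% of all genes were called between R7-II and R7-I (1 and 7 members), 34.7% and 16.5% between R7-II and R7-III (3 and 1 members), and 5.4% and 0.9% between R7-III and R7-I (0 and 0 members). At an adjusted p of 0.05 they were 48.8% and 19.5% (7 and 31 members), 44.2% and 22.6% (13 and 16 members), and 14.8% and 4.14% (0 and 19 members).

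By place in the ribosome, the calls on the TPM scale were scattered, beside 40.6% of all genes called higher and 15.5% lower between R7-II and R7-I. The members of the 5S particle, Rpl5 and Rpl11, had 0 calls between R7-II and R7-I, where Rpl11 measured 3668 ± 67.2 and 3458 ± 110 TPM (SD, n = 3; adjusted p = 0.0249). Among the 4 stalk proteins, Rplp0 rose between R7-II and R7-I while Rplp1 (-0.078, adjusted p = 0.0901) and Rplp2 (-0.013, adjusted p = 0.739) were not called. Of 8 tunnel exit proteins 2 were called lower and 0 higher (median -0.0075), of 4 proteins of the mRNA entry 2 lower (median -0.10), and of 6 proteins of the mRNA exit platform 1 higher (median 0.0039). Rpsa, of that platform, measured 3641 ± 45.1, 3726 ± 98.0 and 3756 ± 23.9 TPM in R7-I, R7-II and R7-III and was not called in any comparison. The beak had 0 calls among 3 (median -0.064) and the intersubunit bridge 1 lower of 2 (median -0.10). Of the 18 genes mutated in Diamond-Blackfan anaemia, an inherited failure of red cell production, 1 was higher and 5 lower, with a median of -0.052 close to that of all members. After median-of-ratios scaling, where 29.4% of all genes were called lower, 8 of the 8 tunnel exit proteins, 4 of the 4 of the mRNA entry and 14 of the 18 Diamond-Blackfan genes were called lower, and the medians of these groups lay between -0.29 and -0.18.

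The paralogs with an l suffix did not move together. Between R7-II and R7-I, of the 5 tested, Rpl22l1 and Rpl7l1 (-0.14, adjusted p = 0.00201, lost without R7-I replicate 1 or 3 at an adjusted p of up to 0.0108) were called lower and Rps4l higher. Rps27l, a p53-responsive paralog of Rps27, measured 513, 502 and 569 TPM in R7-I, 455, 562 and 487 in R7-II and 556, 568 and 523 TPM in R7-III, with overlapping libraries and no call. Rpl39l, known mainly from testis, was between 0.26 and 3.48 TPM in the 9 libraries and was not called. Their namesakes Rpl3, Rpl7, Rpl10 and Rpl39 were not called: Rpl3 measured 3583 ± 24.8, 3429 ± 14.9 and 3438 ± 24.7 TPM, Rpl7 4605 ± 84.8, 4419 ± 112 and 4456 ± 27.6 TPM, Rpl10 3968 ± 32.8, 3950 ± 109 and 3788 ± 68.6 TPM, and Rpl39 2489 ± 47.4, 2465 ± 81.2 and 2421 ± 119 TPM in R7-I, R7-II and R7-III. Rpl36al, a paralog outside the symbol rule, followed Rpl22l1 in direction, with 1347, 1311 and 1308 TPM in R7-I, 1093, 1110 and 1181 in R7-II and 1220, 1244 and 1228 TPM in R7-III (-0.23 ± 0.030 between R7-II and R7-I, adjusted p = 6.06e-05). Its ratio to Rpl36a was 0.622 ± 0.00418 in R7-I, 0.539 ± 0.0268 in R7-II and 0.623 ± 0.0296 in R7-III, with R7-II below the other clones in every library. Fau, which encodes a small subunit protein fused to a ubiquitin-like one, was not called between R7-II and R7-I (-0.045, adjusted p = 0.249; -0.23, adjusted p = 0.00206, after median-of-ratios scaling) and was called lower in R7-II than in R7-III (-0.12 ± 0.033, adjusted p = 0.00976).

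Many mRNAs of proteins that build ribosomes or belong to the mitochondrial ribosome were called lower in R7-II. Of 41 ribosome assembly genes tested, 30 were called lower and 1 higher between R7-II and R7-I, beside 15.5% and 40.6% of all genes, with a median of -0.19, and 22 lower and 2 higher between R7-II and R7-III, beside 18% and 35.6% of all genes, with a median of -0.13. Nucleolin (Ncl), which acts in rRNA transcription and processing, measured 1190, 1166 and 1136 TPM in R7-I, 920, 892 and 925 in R7-II and 1077, 1067 and 1100 TPM in R7-III (-0.35 ± 0.026 between R7-II and R7-I, adjusted p = 1.12e-06). Fbl, the methyltransferase of the box C/D particles, and Nop56, of the same particles, fell by 0.17 (adjusted p = 4.77e-05) and 0.18 (adjusted p = 0.000246). Of 77 mitochondrial ribosomal proteins, 45 were called lower and 1 higher (median -0.18), with Mrpl12 at 438 ± 17.5 TPM in R7-I, 312 ± 7.90 in R7-II and 444 ± 14.9 in R7-III (-0.49 ± 0.036, adjusted p = 1.26e-06). Mrpl52 and Mrpl20 fell by 0.37 and 0.41. Between R7-III and R7-I, 2 assembly genes were called lower and 0 higher, and 3 mitochondrial ribosomal proteins lower and 1 higher, beside 1.45% and 6.96% of all genes. With median-of-ratios scaling 37 and 73 genes of these lists were called lower between R7-II and R7-I, where the share of all genes called lower was 29.4%.

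**Figure D5:**
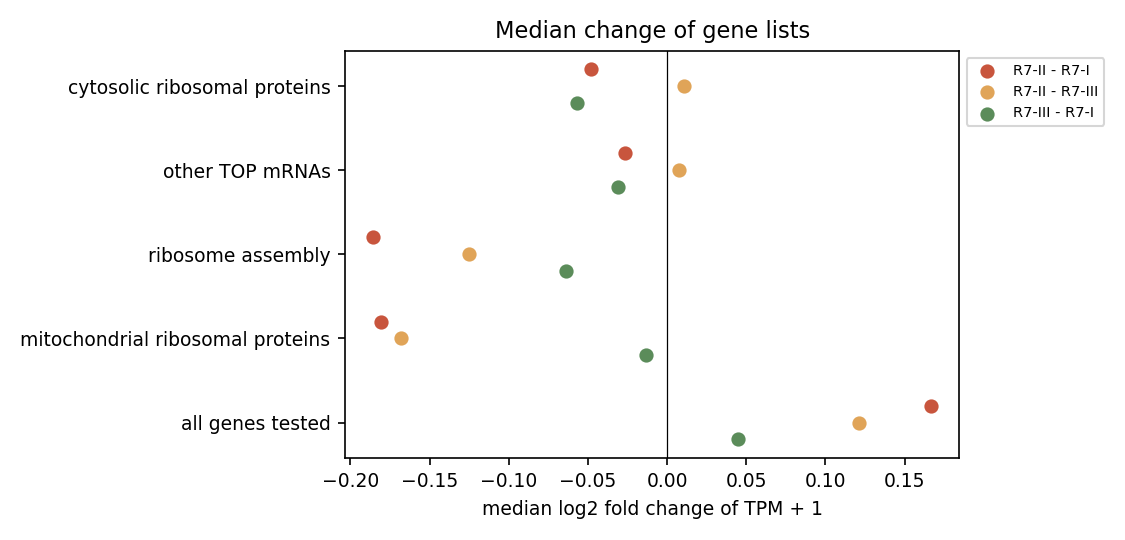
Median difference in log2(TPM + 1) of the cytosolic ribosomal proteins, 21 other TOP mRNAs, 41 ribosome assembly genes, 77 mitochondrial ribosomal proteins and all 11330 genes tested, in the 3 comparisons. Between R7-II and R7-I the medians are -0.048, -0.026, -0.19, -0.18 and 0.17.

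Of 21 other mRNAs known for a TOP start, 4 were called higher and 6 lower between R7-II and R7-I on the TPM scale, with a median of -0.026, and 1 higher and 16 lower after median-of-ratios scaling, with a median of -0.21. Of all genes tested, 40.6% were called higher and 15.5% lower on the TPM scale, and 25.2% and 29.4% after that scaling. Eef1a1, the elongation factor that brings tRNA to the ribosome, measured 15317, 14997 and 14520 TPM in R7-I, 14524, 14135 and 14699 in R7-II and 12724, 12809 and 12561 TPM in R7-III, below both other clones in every library (-0.23 ± 0.025 between R7-III and R7-I, adjusted p = 0.000217). Tpt1, a growth-related TOP mRNA, rose in R7-II from 4838 ± 117 TPM in R7-I to 5591 ± 102 TPM (0.21 ± 0.025, adjusted p = 3.42e-05), but by 0.021 after median-of-ratios scaling (adjusted p = 0.661). Npm1, a nucleolar chaperone of ribosome assembly, fell from 6415 ± 18.5 to 5013 ± 50.9 TPM (-0.36 ± 0.020, adjusted p = 2.07e-07). Of the 16 genes listed for the control of TOP mRNAs, 6 were called higher and 5 lower, or 2 and 7 after median-of-ratios scaling, beside the same shares of all genes. Larp1 measured 319, 312 and 315 TPM in R7-I, 233, 225 and 234 in R7-II and 272, 272 and 273 TPM in R7-III, with all 3 clones apart (-0.45 ± 0.025 between R7-II and R7-I, adjusted p = 1.95e-07; -0.21 ± 0.025 between R7-III and R7-I, adjusted p = 0.000446). Eif4ebp1, the translation repressor that mTORC1 phosphorylates, measured 180 ± 12.2, 136 ± 8.79 and 198 ± 1.38 TPM in R7-I, R7-II and R7-III (-0.40 ± 0.054 between R7-II and R7-I, adjusted p = 7.32e-05). Cnbp, a protein that binds TOP mRNAs, was level on the TPM scale at 800 ± 8.13, 798 ± 20.4 and 788 ± 12.3 TPM.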

How the data were processed

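Poly(A) RNA of sorted CD8 T cells was sequenced with a kit that does not mark strand. The authors estimated gene levels with RSEM 1.2.11 on RefSeq genes of mm10 and deposited TPM values rounded to 2 decimals; the aligner that RSEM called is not stated in the sources used. Their DESeq2 1.8.1 test ran on counts, which were not used here. TPM keeps no depth.

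All 9 libraries entered 1 limma 3.58.1 fit (R 4.3.3; lmFit, eBayes with trend) on log2(TPM + 1) over genes with a maximum TPM above 1, adjusted after Benjamini and Hochberg and called at 0.01. On this scale fold changes of low genes are understated. The fit was tested on simulated data. Shares and medians over members had no test. Shared sequence was found as identical windows of 100 bases in GENCODE M21 transcripts (Python 3.11.15). Members and lists were chosen with earlier results of these data known. Members were named if among the 5 most abundant, among the 5 largest called changes per direction with separate libraries, called against the median or relative to the members' geometric mean, or an l-suffix paralog or its namesake, or Rplp0, Rplp1, Rplp2, Rpsa, Rpl5 or Rpl11; of other lists the 3 most abundant genes were eligible. Rpl36al, Fau, the copy rows and the remaining called members were named after their values were seen. P-values measure the spread between the labelled biological replicates.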

Additional observations from a re-analysis of the deposited data

How the results depend on the processing

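Depth could not be judged from TPM, and the counts of members called varied with the setting. For members higher and lower between R7-II and R7-I (5 and 17 as reported), the counts were 1 and 11 with no filter, 1 and 67 with median-of-ratios scaling, 10 and 9 with quantile normalization, 1 and 7 with no trend, 10 and 6 scaled to the members' geometric mean, and 13 and 8 when copy rows were also added. TPM over genes that are no members gave 2 higher, a fit of only the clones compared 3 higher, and a threshold of 0.05 gave 31 lower. Over all genes, 4579 and 1669 of 16301 were called with no filter and 4754 and 1264 of 11316 with copy rows and member scaling. They were 4555 and 1863 of 11330 with TPM over genes that are no members, and 4096 and 1535 with only the clones compared. The shares of all genes under the other settings are given above. For R7-II against R7-III (7 and 7), they were 3 and 3 with no filter, 0 and 24 with median-of-ratios scaling, 3 and 3 with TPM over genes that are no members, 3 and 1 with no trend, 13 and 16 at 0.05, 3 and 4 with only the clones compared, and 11 and 12 with copy rows added and scaling to the members. Quantile normalization gave 15 higher and scaling to the members alone 12 lower. Over all genes, 4033 and 2007 of 16301 were called with no filter and 3585 and 1818 of 11316 with copy rows and member scaling. They were 4131 and 2025 of 11330 with TPM over genes that are no members, and 3649 and 1826 with only the clones compared. For R7-III against R7-I (0 and 4), they were 1 and 2 with quantile normalization, 5 and 0 scaled to the members, 7 and 1 with copy rows added as well, and 0 lower with no filter, median-of-ratios scaling or no trend, against 19 lower at 0.05. Over all genes, 611 and 122 of 16301 were called with no filter and 979 and 82 of 11316 with copy rows and member scaling. Without 1 library the counts ranged from 2 to 6 higher and 9 to 21 lower between R7-II and R7-I, from 3 to 10 and 2 to 11 between R7-II and R7-III, and from 0 to 5 lower between R7-III and R7-I. The first pair was 2 and 9 without R7-I replicate 1, where 3934 and 1495 of 11320 genes were called. The cause was not tested.

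The median member log2 fold change became -0.24, 0.016, 0.011 and 0.0097 between R7-II and R7-I with median-of-ratios, quantile, member and copy-added member scaling, -0.12 between R7-II and R7-III with median-of-ratios scaling, and -0.11, -0.018, 0.019 and -0.00048 between R7-III and R7-I in the first order. The differences between clones in share of total TPM moved by less than the spread of the libraries in the alternatives run, although the shares themselves changed with the rows counted, in R7-II to 25.4% with copy rows added and 21.7% without the 5 most abundant members. Without 1 library the median between R7-II and R7-III ranged from -0.013 to 0.034. Deviations of libraries with the same replicate number correlated at between -0.045 and 0.089, and those of libraries with different numbers at between -0.095 and 0.065. The labels do not say whether the numbers pair the samples, and a shared day or batch was not tested. With the replicate number as a block the counts were 4 and 14, 4 and 9, and 0 and 1, beside 4356 and 1659, 3838 and 1948, and 607 and 126 of 11330 genes.

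Median-of-ratios scaling lowered the number of members above 0 from 22 to 2 of 82 between R7-II and R7-I and from 46 to 5 between R7-II and R7-III. Among the named members called in either fit, those that changed sign were, between R7-II and R7-I, Rplp0 (-0.076), Rps28 (-0.052), Rps4x (-0.11), Rps9 (-0.066), and, called there but not as reported, Rpl5 (-0.15), Rps6 (-0.14) and Rpsa (-0.16); between R7-II and R7-III they were Rpl17 (-0.0032), Rpl32 (-0.025) and Rps7 (-0.043). With copy rows added, Rpl30 became 0.00081 and 0.105 against R7-I and R7-III, or 0.054 and 0.104 with member scaling as well, and Rps27 then became 0.104 between R7-III and R7-I. The added copy rows were chosen after seeing the data.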

Other observations

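Between replicates, the members varied about as much as other abundant mRNAs. The SD of log2(TPM + 1) within clones had a median of 0.038 over the 82 members tested, 0.034 over 59 other genes above 1000 TPM and 0.081 over all 11330 genes tested. Rps27 (1.12), Rpl39l (0.558), Rps4l (0.191) and Rpl26 (0.188) varied most.

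In 12 of the 82 members the 3 clones were wholly apart. Rpl22l1, Rpl14, Rpl35, Rpl6, Rpl7a and Rps2 ran R7-I, R7-III, R7-II from high to low, an order that 3.01% of all genes tested showed. Rplp0 and Rps4l ran R7-II, R7-III, R7-I, as 11.5% of all genes did, Rpl5 and Rps4x ran R7-II, R7-I, R7-III, as 3.82% did, and Rps18 and Rps7 ran R7-I, R7-II, R7-III, as 0.168% did.

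Over the 71 members above 1000 TPM in every library, the deviation of a library from its clone correlated with log2 transcript length at r = 0.478 in R7-III replicate 3, 0.332 in R7-I replicate 3 and 0.256 in R7-II replicate 1, at -0.485, -0.306 and -0.289 in R7-III replicates 2 and 1 and R7-I replicate 2, and at between -0.163 and 0.0176 in the other 3 libraries. Each deviation was taken from the mean of the clone's own libraries, so the deviations within a clone offset each other. Correlations of opposite sign within a clone are therefore not independent observations. The points share a library and genes are no replicates. What sets this pattern was not tested.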
